A study of Nannospalax ehrenbergi and Mus musculus with 25 samples.

Results

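Fibrosarcomas raised in mice with the carcinogen 3-methylcholanthrene (3MCA) were compared with the opposite, uninjected flank of the same animals. The injected side (IS) of mice 1019, 1023 and 512, which held the tumor, was set against the uninjected side (UIS) of the same 3 mice, which is labelled as muscle. These are 6 of the 25 RNA-seq libraries of a series that also holds the blind mole rat Spalax, and the members were chosen by the animal number and side in the labels. All 3 mice were C57BL/6, labelled male, 3 to 4 months old, given a single dose of 200 µg 3MCA in 200 µl under the skin at the neck, and operated after 14 weeks (1019), 12 weeks (1023) and 11 weeks (512). Each animal gave 1 tumor, so differences among tumors carry no replicate. Neither side was free of the carcinogen exposure of its host. Libraries of 3 untreated mice of the same strain, also labelled male, are cited as context (controls). Levels are normalized reads, the read counts of a gene divided by a size factor of its library, and values are listed in the order of animals 1019, 1023 and 512. In such bulk tissue, fewer cells of a type and less RNA per cell cannot be told apart.

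3MCA is a polycyclic hydrocarbon that binds the aryl hydrocarbon receptor, is oxidized by cytochrome P450 enzymes such as Cyp1a1, and forms DNA adducts. Sarcomas that it induces are tumors of mesenchymal cells, which proliferate and lay down extracellular matrix (ECM). Skeletal muscle, the tissue that such a tumor displaces, puts much of its mRNA into contractile proteins, calcium handling and mitochondria.

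The 6 libraries held between 22143060 and 25934036 reads. A normalized level of 10 stood for 6.95 to 9.7 reads in UIS and 16.9 to 19.3 in IS, so low genes were measured with fewer reads in UIS. The 50 most abundant genes took 34.4% to 38.9% of reads in UIS and 9.65% to 10.6% in IS. No pair of libraries within a side was a copy of another, with a chi-square of at least 92.5 per degree of freedom.

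Several libraries stood apart from their labels or from their group. Xist, the RNA that coats the inactive X chromosome of females, was at 10260 in UIS 512, at 21590 in IS 512 and at 7116 in control M1. The other 6 mouse libraries had at most 18.4. The Y-linked gene Ddx3y was listed at 0 on both sides of 512 and at 4.89 in control M1, against 1556 to 3518 in the other 6. Animals 512 and M1 thus went against their label of sex, while both sides of each animal matched each other.

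The library labelled UIS 1019 carried transcripts of genes that were high in the tumors. For 13 genes at 500 or more in every IS library and at 10 or less in UIS 1023, UIS 512 and all controls, UIS 1019 held a median of 13.3% of the level in its own tumor (range 7.81% to 20.5%), or 6.34% when both levels were scaled by total reads. The low levels in the other libraries are part of how these genes were chosen. The list of mitosis genes was not chosen that way, although Bub1 and Ccnb1 are also among the 13. Its genes stood in UIS 1019 at a median of 14.3% of the level in the tumor of 1019. The medians were 1.11% in UIS 1023 and 0.791% in UIS 512, each against its own tumor. Among genes high in the tumor of 1019 alone, Cd8a of cytotoxic T cells was at 79.8 in UIS 1019 and 710 in IS 1019. It was at 17.5 or less in the other UIS libraries and at 9.93 or less in controls. Others, such as Cldn1 (289), Aplnr (450) and Ciita (70.1), were within the range of the controls in UIS 1019. Xist of animal 512 was at 2.42 in UIS 1019. Of genes high in the tumor of 1023 alone, Npy (1152 there) was at 2.42, while others such as Spp1 (906) and Kcnk3 (1336) were well above 0 in UIS 1019, and Kcnk3 was higher still in UIS 1023 (2011). The 32 genes of mitosis show this library between the other muscle libraries and the tumors. What put these transcripts into UIS 1019 was not tested, and results are therefore also given without this library.

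**Figure D1:**
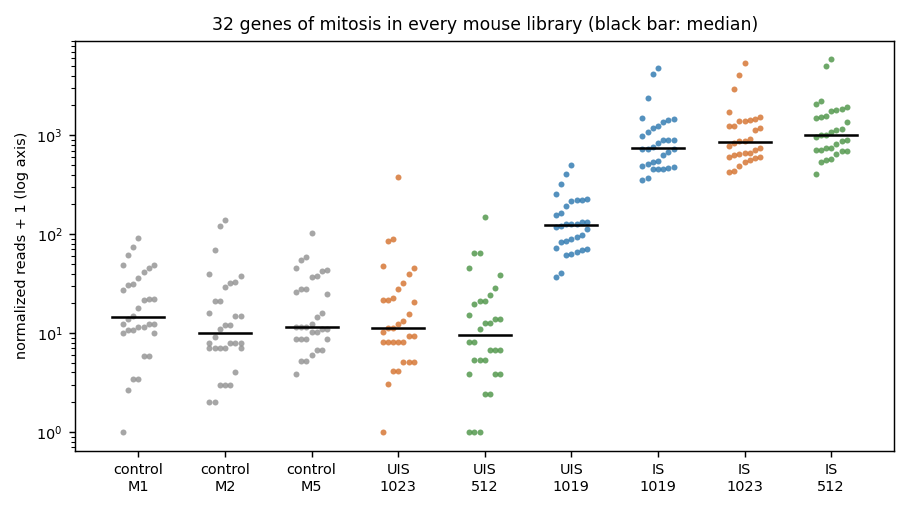
Normalized reads plus 1 (log axis) of 32 genes of mitosis, 1 point per gene, in each of the 9 mouse libraries, with the median as a black bar. UIS 1019 lies between the other UIS and control libraries and the 3 IS libraries, at a median of 14.3% of the level of its own tumor over the 32 genes, against 1.11% for UIS 1023 and 0.791% for UIS 512.

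The other UIS libraries also differed from each other. In UIS 512 the ubiquitin ligases of muscle wasting were high, with Trim63 at 236400 against 5402 in UIS 1019 and 18020 in UIS 1023. UIS 1023 held the neutrophil genes S100a8 at 6158 and S100a9 at 7437, against 53.2 to 167 in the other UIS libraries. The median spread (SD of log2 values) over all genes tested was 0.53 in UIS and 0.37 in IS.

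The 2 sides of each animal were compared gene by gene with limma, with the animal as a block. Of 15220 genes tested, 6707 (44.1%) were differentially expressed genes (DEGs, adjusted p of at most 0.05), of which 3532 (23.2%) were higher and 3175 (20.9%) lower in IS. These shares are the background for the counts of every list below. Without the block there were 6870 DEGs and without UIS 1019 there were 6165. Without animal 1023 limma called 0 genes, where 5566 had an unadjusted p under 0.05, edgeR called 0 and DESeq2 called 4608. No limma call below was thus made without animal 1023. The medians were then -8.52 for sarcomere, 4.64 for mitosis and 4.05 for collagen genes, against -7.57, 5.45 and 4.26 with all animals. Those of the neutrophil (0.39 against -0.90) and aryl hydrocarbon receptor (-0.03 against 0.22) lists changed sign. The myogenic median was -0.58 against -1.94 and the endothelial -0.86 against -1.52. With scaling by total reads in place of size factors the median of all genes moved from 0.11 to 1.16 on the log2 scale, and 82.2% of 8886 DEGs were higher in IS against 52.7%. Changes of less than about that shift depend on the scaling.

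**Figure D2:**
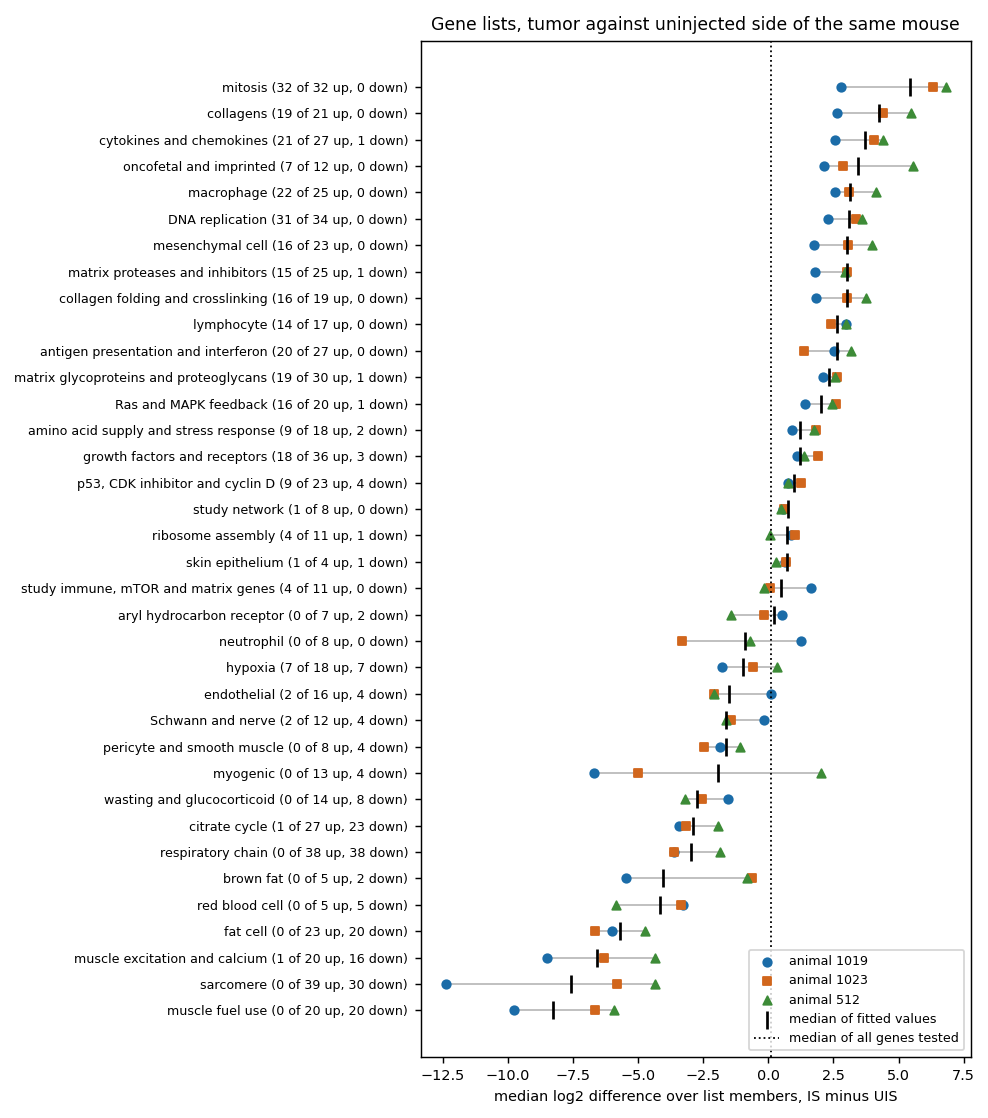
Median log2 difference (IS minus UIS) over the tested members of 36 gene lists, with a point for each animal, the median of the fitted values as a black bar and the median of all genes tested as a dotted line. Labels give how many tested members were DEGs. Contractile, fuel and fat cell lists lie far to the left and mitosis and collagens to the right in all 3 animals, while the myogenic list lies at -6.71, -5.02 and 2.01.

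Genes of the contractile apparatus of muscle were far lower in the tumors. Of 39 sarcomere genes tested, 30 were lower in IS (20 without UIS 1019) and the median log2 fold change was -7.57. Their summed share of reads was 17.0%, 12.1% and 20.4% in UIS and 0.167%, 0.451% and 1.4% in IS (exact permutation p = 0.1, two-sided, the smallest that 3 against 3 can give). Myh4, the fast myosin heavy chain of type IIb fibers (GRCm38 chromosome 11, 67238029 to 67260446, plus strand), stood at 691200, 438000 and 2051000 in UIS and at 14, 1727 and 469 in IS. On the log2 scale it fell by 11.86 (SE 1.44), with a limma adjusted p of 0.00898. The libraries of the 2 sides did not overlap, and the tumor of 1019 held by far the least Myh4.

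Acta1, the actin of skeletal muscle, ran from 341300 to 738100 in UIS and was at 14.5, 7691 and 29910 in IS. It fell by 8.43 (SE 2.34, limma adjusted p = 0.0404), and was no longer called without UIS 1019 (adjusted p = 0.0884) or by edgeR (adjusted p = 0.131). It was among the 5 DEGs with the widest spread among tumors, with an SD of 5.82. Of the slow-fiber genes, Myh7 (-5.40) and Tnni1 (-2.67) were not called, and both were lower in UIS 512 (654 and 248) than in the other UIS libraries (10540 or more for Myh7 and 4075 or more for Tnni1).

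Calcium handling and excitation followed, with 16 of 20 genes lower and 1 higher. Pvalb, the calcium buffer of fast fibers (chromosome 15, 78191114 to 78206400, minus strand), had the largest fall of all genes tested, from 203800, 116300 and 182700 to 2.07, 248 and 96.3 (log2 -11.92, SE 1.39, limma adjusted p = 0.00871). Atp2a1, the calcium pump of fast sarcoplasmic reticulum (-10.13), and the ryanodine receptor Ryr1 (-7.48) fell. The member that rose was Chrna1, the alpha subunit of the acetylcholine receptor, from 457, 376 and 674 to 773, 1264 and 4628 (1.76, SE 0.44, limma adjusted p = 0.0308). It was not called without the block (limma adjusted p = 0.0676) or without UIS 1019 (0.135).

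All 20 genes of muscle fuel use were lower in IS, at a median of -8.25 (18 without UIS 1019). They span the phosphocreatine shuttle, glycogen breakdown and fast glycolysis. Ckm, the muscle creatine kinase, went from 217700, 161000 and 338800 to 2.58, 1175 and 842 (-10.55, SE 1.76, limma adjusted p = 0.0129). Slc2a4, the insulin-responsive glucose transporter, fell from between 10680 and 16430 to between 10.9 and 97.9 (-8.20, SE 0.57, limma adjusted p = 0.00678). Rpl3l, a ribosomal protein particular to striated muscle, fell by 10.09.

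Mitochondrial genes were lower too, with medians nearer to 0 than the -7.57 of the sarcomere list, a difference that was not tested. All 38 genes of the respiratory chain were lower (median -2.98), as were 23 of 27 of the citrate cycle (median -2.91). Their summed reads were 2.33%, 2.5% and 0.955% for the chain in UIS and 0.370% to 0.682% in IS. The deepest falls in the chain were the muscle forms of cytochrome oxidase subunits, Cox8b (-8.80), Cox6a2 (-8.13) and Cox7a1 (-7.86), while Atp5g3 of the ATP synthase fell least (-2.26). Sucla2, the ADP-forming succinyl-CoA ligase, went from 17700, 20160 and 13800 to 941, 1037 and 1301 (-3.97), a narrow range in the tumors. The list member that rose was Acly, ATP-citrate lyase, which supplies acetyl-CoA to the cytosol (1.62, SE 0.27, limma adjusted p = 0.0126). Against untreated controls in place of UIS its difference was -0.34, with control M1 at 15420, and without UIS 1019 its adjusted p was 0.0533.

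Many muscle proteins have a counterpart that other cells use, and 20 such pairs were followed. The muscle form was lower in all 20. The counterpart rose in 6, fell in 2 and was not called in 12. The rises were Actn1 (3.29), Tpm4 (3.04), the nonmuscle myosin Myh9 (2.75), Slc2a1 (2.26), Actb (2.00) and Eef1a1 (1.94). The falls were Ampd3 (-3.54) and Cox7a2 (-2.02). Both lactate dehydrogenase genes fell, Ldha of skeletal muscle by 2.13 and Ldhb of heart and oxidative muscle by 3.56. Eef1a1 and Eno1 are uncertain, since 26.1% and 58.8% of the 101-base windows of their transcripts also occur in transcripts of other genes. The gap between counterpart and muscle form ran from 5.35 (Ampd1 with Ampd3 and Slc25a4 with Slc25a5) to 14.61 for Myh4 and Myh9.

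**Figure D3:**
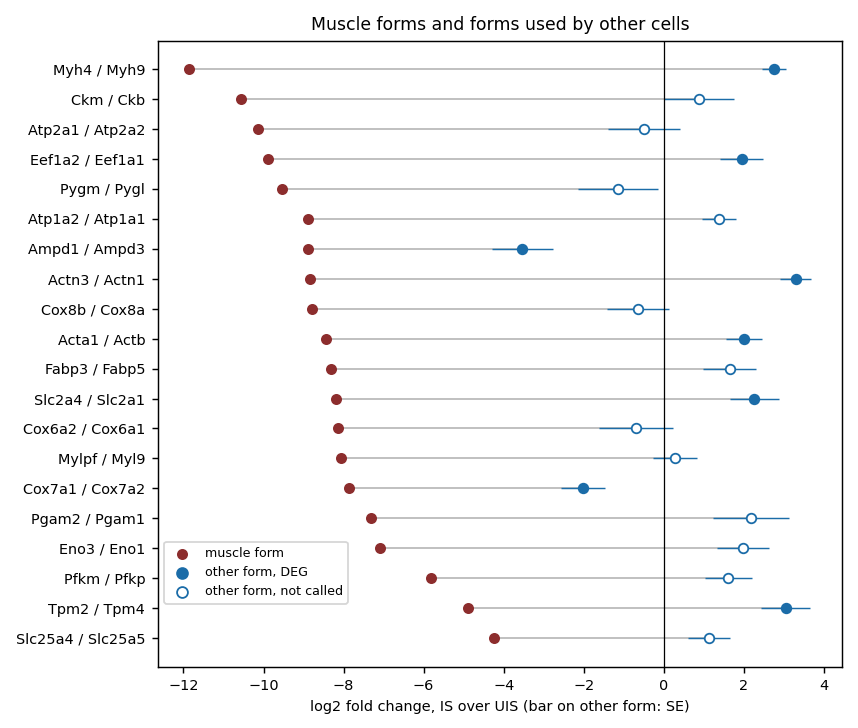
Log2 fold change (IS over UIS) of the muscle form (dark red) and of the form used by other cells (blue, filled where it was a DEG, with its SE) for 20 gene pairs. All muscle forms lie left of 0, from -4.24 (Slc25a4) to -11.86 (Myh4), and the other forms between -3.54 and 3.29.

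Fat cell genes were lower as well. Of 23 fat cell genes tested, 20 were lower in IS (median -5.69). Adipoq, the hormone adiponectin, was at 2462, 7122 and 606 in UIS and at 8.27, 2.37 and 2.63 in IS (-8.83, SE 0.81, limma adjusted p = 0.00742). Pck1, which makes glycerol for fat storage (-10.55), and the lipase Ces1d (-10.79) fell. Fasn and Acaca of fatty acid synthesis were not called (0.74 and -0.40). Brown fat was uneven in UIS. Ucp1, through which brown fat makes heat, was at 13180, 2217 and 0 in UIS, at 2.07, 0 and 1.58 in IS, and did not pass the filter on low values. Of 5 brown fat genes tested, Cidea and Ppara were lower, and Cidea was not called without UIS 1019 (adjusted p = 0.0944).

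Red cell genes were lower in all 5 cases tested (median -4.17), with the globin Hbb-bs at 3487, 19540 and 50940 in UIS and at 373, 1922 and 1001 in IS. Hba-a1 and Hba-a2 (-4.41 and -4.48) share 56.3% and 74.2% of their 101-base windows with each other, so their split is uncertain. Of 8 pericyte and smooth muscle genes 4 were lower, led by Abcc9 (-4.23), Myh11 (-4.04) and Rgs5 (-3.06). Of 16 endothelial genes 4 were lower and 2 higher, against 20.9% and 23.2% of all genes tested. The count lower was 2 without UIS 1019, 12 without animal 1019 and 1 without animal 512. Flt1, a VEGF receptor, fell by 2.48, while Esm1 and Apln, known as genes of sprouting tip cells, rose by 4.69 and 4.29. Esm1 went from 314, 40.2 and 13 to 1872, 2135 and 778. Pecam1 and Cdh5 were not called (-1.67 and -1.19), and in the tumor of 1019 both were at or above the level of its UIS.

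Of 12 Schwann cell and nerve genes 4 were lower and 2 higher, the latter not called without animal 512. S100b, a calcium-binding protein of Schwann cells (-4.24), and Mal, a protein of myelin membranes (-2.75), fell. Nefm and Nefl, the medium and light neurofilaments of axons, rose by 6.18 and 5.88. Nefm was at 189, 4.12 and 1.44 in UIS and at 974, 1222 and 762 in IS, and in the 3 controls it reached 1.42 at most. The epithelial keratins Krt5, Krt1 and Krt15 were listed at 0 in all 6 libraries. Of 4 skin epithelium genes that passed the filter, Cdh1 was higher (2.17) and Trp63 lower (-3.58). Trp63 was not called without UIS 1019 (limma adjusted p = 0.0719). It was at 237, 279.5 and 398.8 in UIS and at 5.17, 16.0 and 146.9 in IS, and thus did not follow these keratins.

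Proliferation was the reverse of the muscle program. All 32 genes of mitosis were higher in IS at a median of 5.45, and all 32 were called without UIS 1019 (median 6.63). Top2a, the topoisomerase that untangles replicated chromosomes (chromosome 11, 98992943 to 99024189, minus strand), had the largest rise of all genes tested. It stood at 497, 19.6 and 2.88 in UIS and at 4818, 5392 and 5839 in IS (7.29, SE 1.4, limma adjusted p = 0.0165). Mki67, the Ki-67 antigen of cycling cells, rose from 404, 44.4 and 13.0 to 4120, 4024 and 4955. The tumors were alike in this list, with a median SD of 0.25, and the spread of the difference lay on the uninjected side, where it was 2.07. Melk, Bub1 and Troap, also of mitosis, were among the 12 largest rises.

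Of 34 genes of DNA replication 31 were higher (median 3.08). The initiation factor Mcm10 rose by 4.76 and the epigenetic maintenance factor Uhrf1 by 4.61. Pcna, the sliding clamp, rose by 1.39 from between 622 and 760 to between 1604 and 1982. Gins1, Rfc4 and E2f2 were not called.

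The matrix genes rose with proliferation. Of 21 collagen genes 19 were higher (median 4.26). Col1a1, the alpha-1 chain of type I collagen, was at 4109, 230 and 147 in UIS and at 28180, 15540 and 39340 in IS (5.64, SE 1.02, limma adjusted p = 0.0148). Its controls ran from 505 to 6447, so the level in UIS 1023 and UIS 512 lay under all 3 controls. The collagens took 0.0266% to 0.149% of reads in UIS and 1.6% to 1.75% in IS. The basement membrane chains Col4a1 and Col4a2 rose by 1.52 and 1.39. Of 19 genes that fold, cleave or crosslink collagen 16 were higher, among them the procollagen peptidase Adamts14 (5.57), the prolyl hydroxylase P4ha3 (5.46) and the lysyl oxidase Loxl3 (4.94).

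Of 30 matrix glycoproteins and proteoglycans 19 were higher and 1 lower. Tnc, tenascin-C, rose from 587, 77.4 and 23 to 5909, 14650 and 15540 (6.74, SE 1.17, limma adjusted p = 0.0136). Fbn2, the fibrillin of embryonic matrix, rose by 6.99 and osteopontin (Spp1) by 6.38. Postn, periostin, went from 2198, 808 and 63.3 to 13500, 17040 and 21840 (5.14). Dcn, decorin, was not called, at 5456, 7462 and 3048 in UIS and at 12650, 15030 and 833 in IS. Prelp fell by 2.16 but was not called without the block (limma adjusted p = 0.145). Of 25 proteases and inhibitors 15 were higher. Timp1 rose by 5.48 and the collagenase Mmp13 by 5.19, while Timp4 fell from between 1307 and 2467 to between 0 and 7.37 (-9.16). Mmp14, the membrane-bound activator of Mmp2, was even across tumors at 5640, 6024 and 6209 (4.19).

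Of 23 mesenchymal markers 16 were higher in IS (median 3.04). Such markers are not particular to fibrosarcoma, so they cannot test the labelled diagnosis. Vimentin (Vim) was at 34900, 30840 and 26420 in the tumors. Cdh11, the cadherin of fibroblasts, rose by 5.66 and Thy1 by 4.74. Pdgfra, the PDGF receptor of fibroblasts, rose by 3.17, with 10240 and 15550 in tumors 1019 and 1023 and 957 in tumor 512. Fap (1.57) and Acta2 (1.78) were not called.

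Of 12 oncofetal and imprinted genes tested 7 were higher. Hmga2, a chromatin protein of fetal mesenchyme (chromosome 10, 120361275 to 120476469, minus strand), was at 4576, 4494 and 4579 in the tumors. In UIS it stood at 689, 10.3 and 4.32, and in the controls at 9.78 or less (7.04, SE 1.43, limma adjusted p = 0.0185, and 0.0537 without animal 512). Igf2bp2 rose by 4.79, Peg10 by 5.85 and Dlk1 by 5.32. Dlk1 was not called without the block (limma adjusted p = 0.0703). Igf2 and its imprinted neighbor H19 were not called, since they were high in the tumor of 512 alone.

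The CDK inhibitors Cdkn2a and Cdkn2b rose, as did D cyclins and their kinases. Cdkn2a, the locus of p16Ink4a and p19Arf (chromosome 4, 89274471 to 89294653, minus strand), was at 688, 11.3 and 8.64 in UIS and at 3700, 7789 and 3107 in IS (6.69, SE 1.41, limma adjusted p = 0.0202). The counts are per gene and do not separate its transcripts. Its neighbor Cdkn2b rose by 4.56. Ccnd1, cyclin D1, went from 851, 122 and 36 to 6489, 10110 and 5033 (5.46). Cdk6 rose by 3.80, Ccnd2 by 3.72 and Cdk4 by 2.09.

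Trp53, which encodes p53, rose from 504, 291 and 324 to 1690, 1308 and 1891 (2.15, SE 0.28, limma adjusted p = 0.00951). Of 23 genes of p53, CDK inhibitors and D cyclins 9 were higher and 4 lower, and without the block 12 were higher and 2 lower. Pmaip1 rose by 4.41, while Ccng1 (-4.12) and Phlda3 (-3.27) fell. Cdkn1a was at 1452, 3657 and 6058 in UIS and at 373, 1176 and 4917 in IS (-1.30, adjusted p = 0.0524, and 0.0200 with DESeq2). Mdm2, the ubiquitin ligase of p53, was lower by 0.98 (limma adjusted p = 0.0307). It was not called without the block (0.0673), and with scaling by total reads its value was 0.09. Bax, Bbc3 and Zmat3 were not called.

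Of 20 genes of Ras and of the MAPK pathway that restrains or reads it, 16 were higher (median 2.03). The EGF receptor ligand Ereg rose by 5.91, the AP-1 subunit Fosl1 by 3.82, and the phosphatases Dusp5 and Dusp6 by 3.75 and 2.57. Etv1 and Etv4, transcription factors downstream of ERK, rose by 3.67 and 3.59. Of the Ras genes Nras (1.10) was higher and Hras (-1.14) was lower (not called without UIS 1019, adjusted p = 0.0507), each by about the shift that the scaling makes. Nras was at 1082, 900.3 and 1096 in UIS and at 1991, 2104 and 2531 in IS. Myc rose from 370, 190 and 258 to 1568, 1486 and 1339 (2.47, SE 0.29, limma adjusted p = 0.00875). Gene counts carry no information on mutations in these genes.

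Of 36 growth factors and receptors 18 were higher and 3 lower. Inhba, the activin subunit, and Igfbp2 rose by 5.59 each and the ligand Hgf by 5.25, while its receptor Met rose by 1.46. Fgf2, Bmp4 (-1.92) and Pdgfb (-1.51) fell, and these 3 were not called with scaling by total reads. Fgf2 went from 399, 496 and 420 to 110, 84.2 and 138. Pdgfb was not called without the block (limma adjusted p = 0.0729).

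Cyp1a1, the classical target of the aryl hydrocarbon receptor (chromosome 9, 57687928 to 57703824, plus strand), was lower in every tumor. It stood at 2169, 5126 and 7296 in UIS and at 68.7, 89 and 182 in IS (-5.37, SE 0.29, limma adjusted p = 0.00659). The controls held 212, 30.1 and 41.1. The 3 UIS levels thus lay above all controls, and the tumors lay in the range of the controls. Against controls in place of UIS the difference was 0.68 (limma adjusted p = 0.485). Nqo1, a quinone reductase, went from 492, 666 and 1231 to 65.6, 85.4 and 93.7 (-3.18), with controls at 333 to 599. Ahr itself was not called, at 198, 324 and 135 in UIS and at 418, 281 and 215 in IS. Cyp1b1 (0.22), Tiparp (0.42) and Ahrr (0.76) were not called. Thus 2 of the 7 genes tested were called, both lower, where 44.1% of all genes tested were called.

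**Figure D4:**
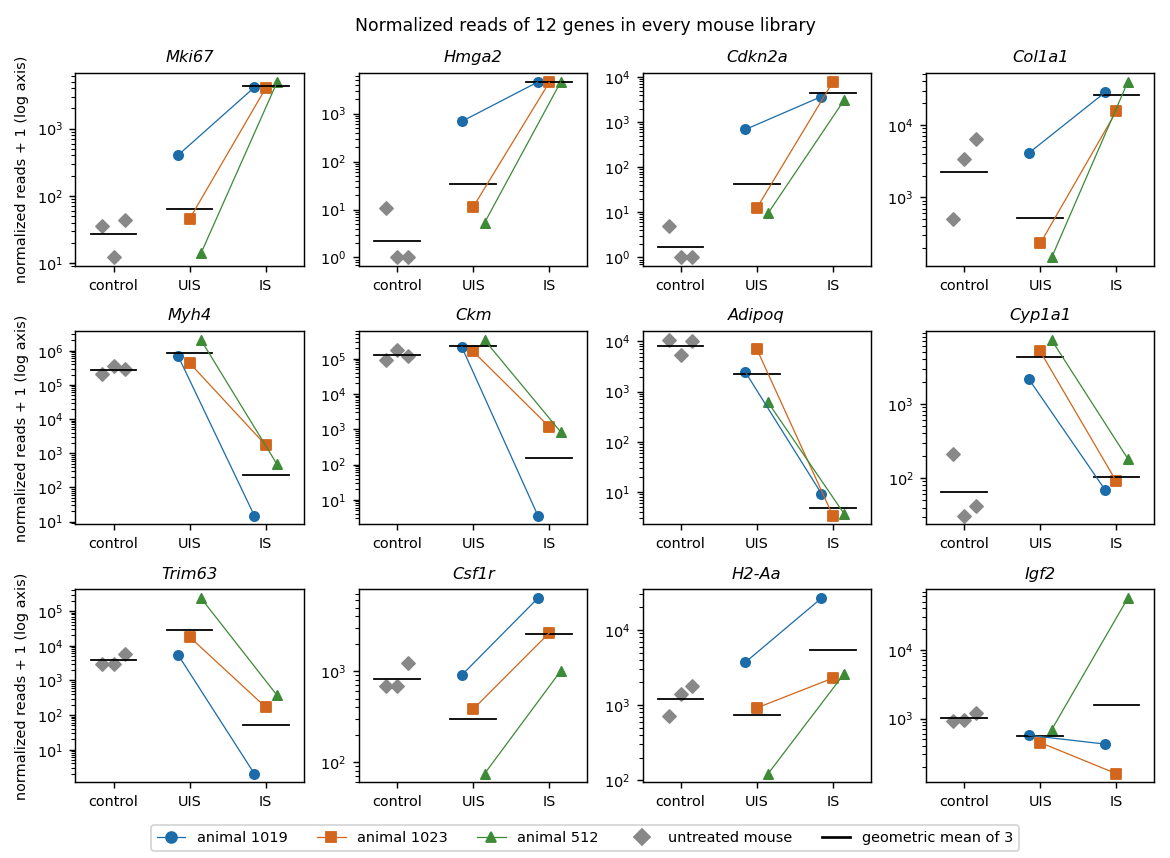
Normalized reads plus 1 (log axis) of 12 genes in the 3 control, 3 UIS and 3 IS libraries, with lines joining the sides of an animal and a black bar for the geometric mean. Cyp1a1 is high in UIS (2169 to 7296) and low in controls (30.1 to 212) and IS (68.7 to 182), and Igf2 rises in animal 512 alone, to 56290.

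Genes of several immune cell types were higher in the tumors. Of 25 macrophage genes 22 were higher (median 3.12). Csf1r, the receptor of the macrophage growth factor, was at 903, 381 and 73.4 in UIS and at 6353, 2633 and 1003 in IS (3.12, SE 0.31, limma adjusted p = 0.00774). The cathepsin Ctss rose by 4.35, Fcgr1 by 4.20 and Trem2 by 4.14. The macrophage genes took 1.13%, 0.533% and 0.231% of reads in IS, highest in tumor 1019, and 0.00915% to 0.0895% in UIS. Without the block, and without UIS 1019, 15 of 25 were called.

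Of 17 lymphocyte genes 14 were higher (median 2.63). Without the block 2 of the 17 were called, without UIS 1019 6 of 23 and without animal 1019 7 of 16. Gzmb, a granzyme of killer cells, went from 31.4, 3.09 and 2.88 to 474, 417 and 29.5 (4.51). Cd8a was at 710, 81.3 and 31.6 in the tumors and Cd4 at 361, 75.9 and 46.3. The checkpoint receptors Pdcd1 and Ctla4 rose by 3.68 and 3.45, and Pdcd1 was not called without the block. The B cell genes Cd79a and Ms4a1 did not pass the filter, with at most 26.8 in any of the 6 libraries.

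Of 27 genes of antigen presentation and interferon response 20 were higher (median 2.62), 10 without the block and 12 without UIS 1019. Mx1, an antiviral GTPase, rose from 116, 30.9 and 11.5 to 2152, 1005 and 451 (4.78, SE 0.37, limma adjusted p = 0.00692). The chemokine Cxcl10 rose by 4.77 and Isg15 by 3.37. B2m, the light chain of MHC class I, rose by 1.97 (limma adjusted p = 0.0169, and 0.0553 without the block). Cd274, which encodes PD-L1, was not called, at 698, 783 and 122 in UIS and at 899, 343 and 252 in IS.

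Of 27 cytokine and chemokine genes 21 were higher and 1 lower (median 3.71). Lif rose by 5.55 and the IL-33 receptor Il1rl1 by 5.14, which was not called without the block. Ccl2, which recruits monocytes, was at 653, 30.9 and 17.3 in UIS and at 4393, 2535 and 387 in IS. Cxcl14 fell by 2.78 and was not called without UIS 1019 (adjusted p = 0.0666). Of 8 neutrophil genes tested (median -0.90) limma called 0, with 0 at an unadjusted p under 0.05, edgeR called 0 and DESeq2 called 2. With UIS 1023 high in these genes the differences were 1.27, -3.32 and -0.70 by animal.

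Genes of muscle wasting were lower in IS in 8 of 14 cases (median -2.74). Trim63 was at 5402, 18020 and 236400 in UIS, at 1.03, 167 and 369 in IS and at 2991 to 5906 in controls (-9.15, SE 0.89, limma adjusted p = 0.00772). Fbxo32, also called atrogin-1, was at 8230, 37710 and 178100 in UIS and at 3365 to 11460 in controls (-6.58). The list took 0.318%, 0.491% and 2.24% of reads in UIS, against 0.115% to 0.286% in controls. UIS 512 was also the highest UIS library for Foxo1, Ddit4, Sesn1 and Fkbp5, while its shares of collagen, fat cell and macrophage reads were the lowest of the 3. The glucocorticoid-responsive genes Klf15 (-6.51) and Tsc22d3 (-3.01) were lower in IS.

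Genes of the hypoxia response were split, with 7 of 18 higher and 7 lower. Car9 (3.38), Car12 (3.23) and Ero1l (2.74) rose, with Car9 and Ero1l not called without UIS 1019. Bnip3 (-3.69), Epas1 (-3.41) and Egln1 (-2.64) fell. Slc2a1, the basal glucose transporter, was at 567, 5176 and 3138 in the tumors, and in tumor 1019 it was close to the 363 of its own UIS. Without UIS 1019, 2 of the 18 were higher and 5 lower, and without animal 512 1 was higher.

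Of 18 genes of amino acid supply 9 were higher and 2 lower. The mitochondrial folate enzyme Mthfd1l rose by 4.82, the cystine transporter Slc7a11 by 4.55 and Psat1 of serine synthesis by 4.06. Chac1, which degrades glutathione, fell from 1740, 3340 and 4025 to 44.5, 109 and 71.1 (-5.33, SE 0.30, limma adjusted p = 0.00659). Of 11 genes of ribosome assembly 4 were higher and 1 lower, where 44.1% of all genes tested were called. Nop58 rose by 1.70 and Npm1 by 1.16, the latter by as much as the median of all genes reached with scaling by total reads.

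The 3 tumors differed from each other, and as each is 1 animal these differences have no test. At 500 or more and at least 8 times the level in either other tumor, 12 genes were high in tumor 1019, 13 in tumor 1023 and 123 in tumor 512. The 123 include Xist, as animal 512 differed from the others in its sex genes. Genes at 500 or more in both other tumors and at least 8 times lower in 1 numbered 28 for tumor 1019, 1 for 1023 and 40 for 512. The correlation of log2 values over all genes tested was 0.93 between 1019 and 1023, 0.85 between 1019 and 512 and 0.89 between 1023 and 512.

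Tumor 512 held regulators of muscle precursor cells. Pax7, the factor of muscle stem cells, was at 0, 0.593 and 1755 in the tumors. Myod1 stood at 0.517, 6.53 and 2831 and Myog, which drives myoblast differentiation, at 1.03, 16.0 and 10920. Their controls held 79 to 153, 247 to 461 and 181 to 202. Tmem8c, the myoblast fusion protein Myomaker, was at 0, 1.19 and 1578. The embryonic and perinatal myosins Myh3 (3.10, 93.7 and 5921) and Myh8 (1.03, 10.7 and 4047) went the same way, as did the fetal acetylcholine receptor subunit Chrng (1584 in tumor 512 and at most 1.19 in the other tumors). The adult myosin Myh4 was at 469 in tumor 512, under the 1727 of tumor 1023. Pax3 was listed at 0 in all 3 tumors. Of 13 myogenic genes tested 4 were lower over the 3 animals, which were Pax3, Myf6, Mef2c and Mstn, and without animal 512 all 13 were lower (median -5.42 against -1.94). Pax7, Myod1, Myog, Myh3 and Myh8 were not called. Without animal 512 Myod1 and Pax7 were called lower (limma adjusted p = 0.0174 and 0.0182).

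Several imprinted growth genes were highest in the same tumor. Igf2 was at 424, 157 and 56290 and H19 at 2127, 2236 and 114700. In GENCODE vM21, 75.7% of the 101-base windows of Igf2 are shared with the overlapping gene model Gm49394, so the level of Igf2 depends on how such reads were assigned. Mest (909, 313 and 13810), Plagl1 (312, 265 and 5571) and Peg3 (3.62, 48.1 and 12730) were also highest there. Dlk1 (8790, 9412 and 400) and Grb10 (3966, 6395 and 254) were lowest there. Part of these differences lay in tumors 1019 and 1023. Peg3 was at 3518, 11670 and 8000 in UIS and H19 at 14240, 13190 and 6015, and in tumors 1019 and 1023 both were under their UIS levels. Fibroblast and matrix genes did not go one way. Lum (3316, 11280 and 198), Dcn (833 in tumor 512) and Pdgfra were lowest in tumor 512, while Col1a1, Postn and Tnc were highest there, and the mesenchymal list took 0.705%, 0.861% and 0.726% of reads. Mki67 and Hmga2 were level across the 3. The label of fibrosarcoma is the same for all 3 animals.

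**Figure D5:**
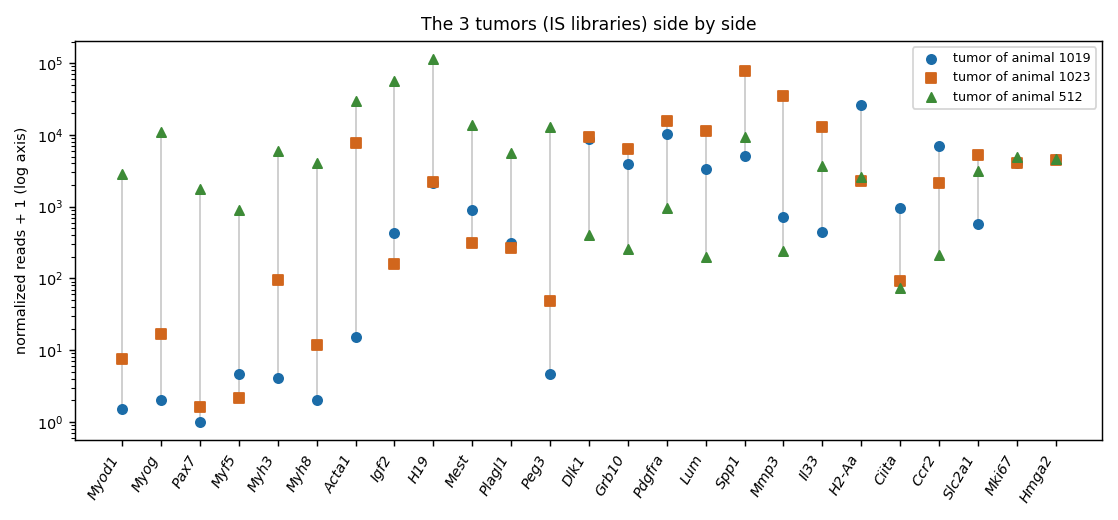
Normalized reads plus 1 (log axis) of 25 genes in the IS libraries of animals 1019, 1023 and 512. Myogenic genes and Igf2, H19 and Mest are highest in tumor 512, MHC class II genes (H2-Aa, Ciita) in tumor 1019 and Mmp3 and Spp1 in tumor 1023, while Mki67 (4024 to 4955) and Hmga2 (4494 to 4579) are level.

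Among the tumors, 1019 held the largest shares of macrophage, lymphocyte and antigen presentation reads. Its cytokine and chemokine share equalled that of tumor 1023 (0.321%), and its neutrophil share was under that of tumor 1023 (0.0113% against 0.014%). H2-Aa of MHC class II was at 26460, 2279 and 2618 and its activator Ciita at 945, 90.2 and 72.1. The interferon-gamma target Cxcl9 was at 4240, 221 and 521 and the monocyte receptor Ccr2 at 6911, 2119 and 213. Tumor 1019 also held the least muscle RNA, with a sarcomere share of 0.167%. Tumor 1023 was highest for Mmp3, stromelysin-1 (718, 34380 and 237), for osteopontin (5147, 78800 and 9359), for Il11 (23.8, 1062 and 16.3) and for Npy (6.20, 1152 and 3.68). Il33, an alarmin, was at 439, 12720 and 3671.

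Some genes were nearly equal across the tumors. The 5 DEGs with the narrowest spread at a mean of 100 or more were Cep135, Borcs6, Npm3, Rock1 and Nudt7. Rock1, a kinase of actomyosin contraction, was at 1659, 1648 and 1640 in IS and at 891, 878 and 736 in UIS (0.99, adjusted p = 0.0262 by limma).

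Genes that the study singled out were also read in this comparison. The study took its matrix network from genes that changed in Spalax tumors, and compared the other genes between Spalax and mice. It also reported the network in these mice, so the counts here are not independent evidence. Of 8 tested genes of its matrix network 1 was called. Lum rose by 2.45 (SE 0.73, limma adjusted p = 0.0487), was not called without the block (0.261), and differed from controls by 0.17. Aspn (0.74), Fbln5 (0.44), Omd (0.79), Sfrp1 (1.17), Igf2 (1.48), Cebpa (-1.01) and Jun (0.01) were not called, and Chad and Kera did not pass the filter. Jun was at 2769, 2553 and 3474 in UIS and at 2993, 4464 and 1872 in IS.

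Of 11 immune, mTOR and matrix genes 4 were higher. They were Creb3l1 (3.10), Emilin2 (2.78), Irf1 (1.58) and Ifnar2 (1.37). Irf1 and Ifnar2 were not called without the block (limma adjusted p = 0.0827 and 0.115). Without UIS 1019 Irf1, Ifnar2 and Emilin2 (adjusted p = 0.0538) were not called. Tlr4 (0.48), Ifngr1 (0.20), Mtor (-0.45), Ddit4 (-1.41), Bmp7 (-0.65) and Mmp8 (-0.17) were not called.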

How the data were processed

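RNA-seq reads (single-end, 101 bases, stranded libraries) were aligned with TopHat and counted with HTSeq by the authors. The submitters' processing notes give TopHat 1.4.1 and build GRCm38, and the strand setting of the counting is not given in the sources used here. For each gene the authors deposited a signal, made by dividing its read count by the size factor of the library. Dividing by the value of 1 read gave whole numbers for 100% of entries (tolerance 0.1), so reads could be recovered. Columns of per-sample values left unused in the mouse table numbered 0, and the Spalax table was not used here.

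Log2(value + 1) was tested with limma 3.58.1 in R 4.3.3 (lmFit, eBayes with trend), with the animal as a block, for genes at 10 or more in at least 3 of the 6 libraries, and p-values were adjusted by Benjamini-Hochberg. Fold changes on this scale understate the change of low genes. Alternatives used edgeR 4.0.16 and DESeq2 1.42.0 on recovered reads, other scalings, filters and pseudocounts, left-out animals and untreated controls as the reference. The fits were also run on simulated data with a single dispersion, few changed genes and no effect of the animal. That setting is simpler than these libraries, so it cannot show how the fits behave on them. Coordinates and windows of 101 bases came from GENCODE vM21 on GRCm38.

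Lists, members and rules were chosen with earlier results of these data known. Named genes were the 12 largest rises and falls among DEGs with no overlap between sides, up to 3 rises and 3 falls per list, a fixed set, and the 5 DEGs with the widest and the narrowest spread among tumors. The planned pair of Ldhb with Ldha was left out of the pairs, since Ldha is the skeletal muscle form. Genes named as high or low in 1 tumor, the sex genes and the 13 tumor genes were picked after their values were seen. The sides are paired because they come from the same animal, and the correlation of their deviations from the group means was 0.13, 0.05 and 0.18. Each group holds separate animals. P-values of the main fit weigh the mean difference between sides against the spread of that difference among these 3 animals, with variances moderated over all genes. Intervals and floors for counts cover counting error only and were not needed. Some members of the lists are not reported here by name.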

Additional observations from a re-analysis of the deposited data

How the results depend on the processing

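The 3 totals of DEGs (all, higher, lower) kept within 1.5 times their value under no block, pseudocount 0.1, no filter, a filter at 50, TMM, edgeR, DESeq2, both tools together (6036) and controls as the reference (8882). With scaling by total reads 7301 genes were higher and 1585 lower in IS. Leaving out 1 animal gave 0 to 6833 DEGs, 0 to 3425 higher and 0 to 3408 lower, the 0 coming without animal 1023, where 4 libraries remained. UIS 1019 was left out after seeing the data, in a fit with no block. That fit gave 6165 DEGs, 3213 higher and 2952 lower, of which 5640 were shared with the 6707. Without the block 6154 of the 6707 DEGs were called again, a change of under 1.5 times, and among the named genes 16 lost their call, which besides those given in the text were Mmp3, Rbm24, Gadd45a and Rrp12.

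The direction turned for Mdm2 with scaling by total reads (0.09), and for Acly (-0.34), Cyp1a1 (0.68) and Mmp8 (3.47) with controls as the reference. The cause was not tested. The median of the aryl hydrocarbon receptor list changed sign without animal 1019 (-0.36), without animal 1023 (-0.03), without UIS 1019 and with a filter at 50 (-0.19). That of the neutrophil list did so without animal 1023 (0.39), with scaling by total reads (0.16) and against controls (3.62). The other changes were hypoxia (0.08 with scaling by total reads), skin epithelium (-0.91 with a filter at 50) and study network (-0.15 against controls). Among the named genes 31 lost their call without animal 512, among them Hmga2, Cdkn2a and Spp1, and 148 without animal 1023. The search of promoters for motifs was not run. A level of 10 is under 10 reads in a UIS library, which limits what low genes can show.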

Other observations

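Among the 12 largest rises were developmental genes that no list held. Grem1, a secreted BMP antagonist, went from 693, 7.22 and 5.76 normalized reads in UIS to 4645, 8391 and 1918 in IS (log2 6.96). Agtr2, the type 2 angiotensin receptor of fetal mesenchyme, went from 87.1, 5.16 and 4.32 to 436, 3784 and 1989 (6.71). Mex3a, an RNA-binding protein, rose by 6.58. Sox11, a factor of embryonic neurons and mesenchyme that was picked after its values were seen, was at 77.4, 6.19 and 2.88 in UIS and at 526, 1179 and 2500 in IS.

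Zim1, an imprinted zinc finger gene, had 1 of the 5 widest spreads among tumors. It was at 145, 1199 and 2724 in UIS and at 0, 4.15 and 1704 in IS, a log2 fold change of -5.24 in which animals 1019 and 1023 had the large differences. It was not called without the block (limma adjusted p = 0.16). Rbm24, a splicing factor of muscle, was at 1.03, 46.3 and 3587 in IS and at 4938 to 9877 in UIS.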
